A study of Bos taurus with 34 samples.

Results

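Prolactin and growth hormone receptor signalling was examined in cattle liver through a list of 10 genes taken by symbol: both receptors (PRLR and GHR), the kinase JAK2, the transcription factors STAT5A and STAT5B, the feedback inhibitors CISH, SOCS1, SOCS2 and SOCS3, and the phosphatase PTPN11. All 10 were found among the 14161 genes of the comparison of slick with free animals, and each symbol belonged to 1 of the 27607 gene models of the count tables. The list was not picked on measured values, but the members were proposed with earlier results of these data in view.

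Prolactin and growth hormone bind class I cytokine receptors that have no enzyme of their own. Ligand binding turns on the kinase JAK2, which is bound to the receptor's intracellular part, and JAK2 phosphorylates STAT5A and STAT5B, which then enter the nucleus and switch on target genes. Among these targets are CISH and the SOCS genes, whose proteins damp the same receptors. In liver this route is best known for the control by growth hormone of IGF1 production, while PRLR is the gene altered by the SLICK1 allele, which truncates the receptor and gives cattle a short, sleek coat.

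The series holds 34 liver samples of the Senepol breed label in 2 experiments. The TruSeq experiment has 18 samples, all from daughters of 2 slick bulls, Lone Ranger or Blanco: 10 SLICK daughters with 1 copy of the allele, 5 by each sire, and 8 FREE daughters with 0 copies, 7 by Lone Ranger and 1 by Blanco. In the SMARTer experiment, 11 S2 animals carried 2 copies and 5 S1 animals carried 1 copy. The age of the animals is not in the labels, and sire and genotype are partly confounded, so that their effects cannot be fully told apart in the values below.

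The columns of single libraries carry animal numbers found in no sample label, and they were not used. Values per animal, the spread and co-variation between animals, depth per sample, and S2 against S1 are therefore not analysed here. What follows rests on the authors' deposited table of SLICK against FREE, whose positive values are read from its name as higher in SLICK. It gives for each gene a log2 fold change, an average level in log2 CPM (read counts scaled to library size, as CPM, averaged over all samples compared), an F value, a p and an adjusted p. Each standard error (SE) and 95% interval below was computed from the deposited log2 fold change and F with 18.7 degrees of freedom, and is an approximation. The tissue label matched its defining markers, since albumin (ALB) averaged 15.87 log2 CPM and transferrin (TF) 14.38 log2 CPM in the authors' deposited table.

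None of the 10 genes changed at the 0.05 level of the adjusted p given by the authors' deposited table, where 0.501% of all genes did (71 of 14161). Before adjustment, 4 of the 10 had a p under 0.05, against 16.0% of all genes. These were SOCS1, SOCS3 and SOCS2 with values lower in SLICK, where 8.79% of all genes had such a p, and GHR with a value higher in SLICK, where 7.22% did. With 10 genes these counts are a description, and nothing particular to the list is read from them. Of the 10 log2 fold changes 8 were negative and 2 positive, and their median was -0.10, against -0.01 over all genes, of which 51.8% were negative. The median size of the log2 fold change, regardless of sign, was 0.21 for the members and 0.11 over all genes.

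Transcript levels of the 10 genes spanned a wide range. GHR had the highest average level, 179 CPM, and SOCS1 the lowest, 0.255 CPM, on the scale of the authors' deposited table. Levels of different genes were compared per kilobase of gene model, dividing the average CPM by the deposited length. On that scale GHR stood at 45.1 CPM per kb and PRLR at 16.8 CPM per kb, followed by STAT5B (13.1), SOCS2 (12.7), CISH (9.39), STAT5A (8.44), PTPN11 (7.19), SOCS3 (6.02), JAK2 (1.97) and SOCS1 (0.379). Whether neighbours in this order differ beyond the spread between samples was not tested, and STAT5B and SOCS2, or CISH and STAT5A, lay close together. Without division by length, 6 of the 10 genes changed place by 1 rank, and GHR stayed highest and SOCS1 lowest.

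**Figure D1:**
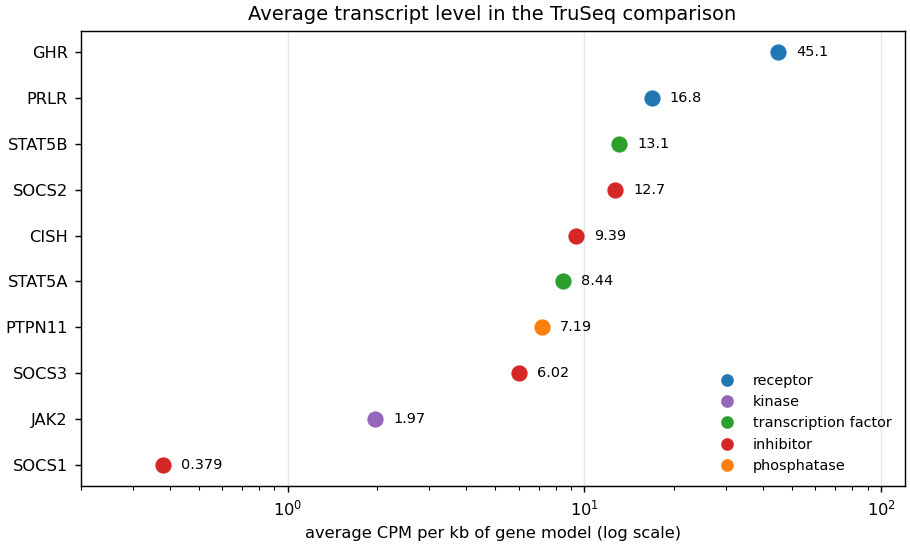
Average level of each gene in CPM per kb of gene model (log scale), coloured by role, over all samples of the TruSeq comparison. Both receptors lead at 45.1 and 16.8 CPM per kb, and JAK2 (1.97) and SOCS1 (0.379) lie at the bottom; no spread between samples is shown.

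GHR, the growth hormone receptor, was the only member with a positive log2 fold change and an unadjusted p under 0.05. Its log2 fold change was 0.40 (SE 0.15), or 1.32-fold higher in SLICK, with a 95% interval of 0.08 to 0.72; in the authors' deposited table the adjusted p was 0.201. GHR was an abundant transcript, above 94.98% of the genes by average CPM, and ranked 3 of 17 measured cytokine receptor genes per kb, behind IFNGR2 (162 CPM per kb) and IL13RA1 (63.5 CPM per kb). Highly expressed genes as a group had positive values: the top 10% of genes by level, which hold GHR, had a median log2 fold change of 0.10. Relative to that median the value of GHR was 0.30, with an interval of -0.02 to 0.62 that includes 0. GHR lies on the - strand of chromosome 20, from 31868624 to 32178311 of the ARS-UCD1.2 assembly (ENSBTAG00000001335), in 13 separate exon blocks.

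Most hepatocyte markers had values of the same sign as GHR. Of 12 measured, 9 had positive log2 fold changes, 4 of them with an unadjusted p under 0.05, against 7.22% of all genes in that direction, and 0 passed the adjusted p; their median was 0.20. HNF4A is also on the list of STAT5 targets. Among the markers CPS1 of the urea cycle, the largest value of the list, stood at 0.49 and ALB at 0.38 in the authors' deposited table. The 3 markers with negative values were APOA1 (-0.19), FGB (-0.14) and FGA (-0.08). In bulk liver, fewer cells of a type and less RNA per cell cannot be told apart, and the part of cell composition in the value of GHR was not tested.

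PRLR, the gene that carries the allele, had a log2 fold change close to 0. In the authors' deposited table it was -0.05 (SE 0.17), and the 95% interval of -0.41 to 0.31 runs from 0.754-fold to 1.24-fold of the FREE level. A p of 0.936 after adjustment does not show that the levels were alike, but this approximate 95% interval did not reach a 2-fold change in either direction. PRLR was expressed at 59.3 CPM, above 85.2% of genes, and ranked 8 of the 17 cytokine receptor genes per kb. Per kb, the level of GHR was 2.68 times that of PRLR. Since the allele alters the coding sequence, and the reads were counted per gene, this level does not tell the receptor forms apart. PRLR lies on the + strand of the same chromosome as GHR, from 38971752 to 39100563 (ENSBTAG00000025035), with 6.79 Mb and 49 gene models between them.

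JAK2, the kinase that both receptors use, had a log2 fold change of -0.06 (SE 0.12, interval -0.32 to 0.19); in the authors' deposited table its adjusted p was 0.872. It was the least abundant of the 4 Janus kinases per kb, at 1.97 CPM per kb, against 3.83 for JAK3, 12.5 for TYK2 and 23.4 for JAK1. The log2 fold changes of the other 3 kinases lay between -0.03 and 0.04 in the authors' deposited table, and none had an unadjusted p under 0.05. JAK2 lies on chromosome 8 from 39381277 to 39499024 on the - strand (ENSBTAG00000012047), in 25 exon blocks.

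STAT5A and STAT5B, the closely related factors that JAK2 activates, had values of opposite sign. STAT5A had a log2 fold change of -0.10 (SE 0.06, interval -0.22 to 0.02); in the authors' deposited table its adjusted p was 0.426. For STAT5B it was 0.14 (SE 0.08, interval -0.02 to 0.31), where the authors' deposited table lists an adjusted p of 0.408. Neither passed, and both intervals include 0; the difference between these genes was not tested. STAT5A had the smallest standard error of the 10 genes: at that error a log2 fold change of 0.26 in size would have reached the adjusted threshold, where STAT5B would have needed 0.36.

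Both STAT5 genes lie on chromosome 19, on opposite strands and 37.3 kb apart, with 1 gene model between them. STAT5B runs from 42319170 to 42357910 (- strand, ENSBTAG00000010125) and STAT5A from 42395221 to 42416545 (+ strand, ENSBTAG00000009496). Per kb, STAT5B stood 1.55 times as high as STAT5A. Their sequences are alike, and the counting of reads that match both in the TruSeq libraries was not described in the labels, so their levels are uncertain to that extent. Of 7 measured STAT genes these ranked 5 and 6 per kb, below genes such as STAT2 (84.8 CPM per kb), STAT3 (52.8) and STAT6 (25.2).

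Of the 4 feedback inhibitors, SOCS1, SOCS3 and SOCS2 held the largest differences of the list, with values lower in SLICK that did not pass the adjusted threshold. SOCS1, an inhibitor of JAK kinases that interferon and other cytokines induce, had the largest: its log2 fold change was -1.002 (SE 0.24, interval -1.51 to -0.49), or 2.00-fold lower in SLICK. The adjusted p of SOCS1 was 0.0649 and its unadjusted p was 6.09e-04 in the authors' deposited table, rank 143 of the 14161 genes. SOCS1 averaged -1.97 log2 CPM, above only 5.14% of the genes. Its gene model is a single block of 672 bases (chromosome 25, 9913007 to 9913678, - strand, ENSBTAG00000004386). With an average of 0.255 CPM, SOCS1 was the member with the fewest reads relative to library size. Among genes of like level, 4.87% had a log2 fold change as low as that of SOCS1 or lower. Relative to the median of those genes its value was -0.91, with an interval of -1.42 to -0.40.

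SOCS3, an inhibitor that acts on receptors of the interleukin-6 family, had a log2 fold change of -0.68 (SE 0.21, interval -1.12 to -0.23); in the authors' deposited table its adjusted p was 0.118. That corresponds to 0.626 times the FREE level, at an average of 4.21 CPM. SOCS3 is a single block of 700 bases on chromosome 19 (53840159 to 53840858, + strand, ENSBTAG00000008441), 11.4 Mb from STAT5A. Among genes of like level, 3.32% had a log2 fold change as low as that of SOCS3 or lower.

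SOCS2, which growth hormone induces through STAT5 and which limits growth hormone signalling, was the most abundant inhibitor. Its average was 41.1 CPM, and per kb it led the 8 measured genes of the CIS and SOCS family, at 12.7 CPM per kb. The log2 fold change of SOCS2 was -0.60 (SE 0.23, interval -1.08 to -0.12), or 1.51-fold lower in SLICK; the authors' deposited table lists an adjusted p of 0.201. Among genes of like level, 1.77% had a value as low or lower, the lowest such share of the 10 genes. SOCS2 lies on chromosome 5 from 23367712 to 23380477 (+ strand, ENSBTAG00000012007).

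CISH, like SOCS2 a direct STAT5 target and a feedback inhibitor, did not share these values. Its log2 fold change was -0.10 (SE 0.17, interval -0.46 to 0.26), and the authors' deposited table lists an adjusted p of 0.844. The intervals of CISH and SOCS2 overlap, and the difference between both genes was not tested. CISH averaged 23.4 CPM, second of the family per kb (chromosome 22, 49749512 to 49755490, + strand, ENSBTAG00000022622). The 4 family members outside the list, SOCS4 to SOCS7, had log2 fold changes between -0.12 and 0.04 in the authors' deposited table, none with an unadjusted p under 0.05.

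PTPN11 encodes SHP2, a phosphatase that acts in signalling from both receptors. It had a log2 fold change of -0.28 (SE 0.14) with an interval of -0.56 to 0.01, and the authors' deposited table lists an adjusted p of 0.343. PTPN11 averaged 14.7 CPM and lies on chromosome 17 from 61736442 to 61802172 (- strand, ENSBTAG00000002048). A U6 small RNA gene lies within its span on the opposite strand, the only gene whose span overlaps that of a member. Whether the U6 gene touches a counted exon of PTPN11 was not checked. The related phosphatases PTPN2 and PTPN1, which act on JAK and STAT proteins, each stood at -0.18 on the log2 scale, and the authors' deposited table lists adjusted p values of 0.118 and 0.209. No gene of the phosphatase and PIAS list passed the adjusted threshold. Of its 12 measured members, 7 had negative and 5 positive values, among the latter PIAS3 at 0.18. Only PTPN2 and PTPN1 had an unadjusted p under 0.05, both lower in SLICK, where 8.79% of all genes had such a p.

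**Figure D2:**
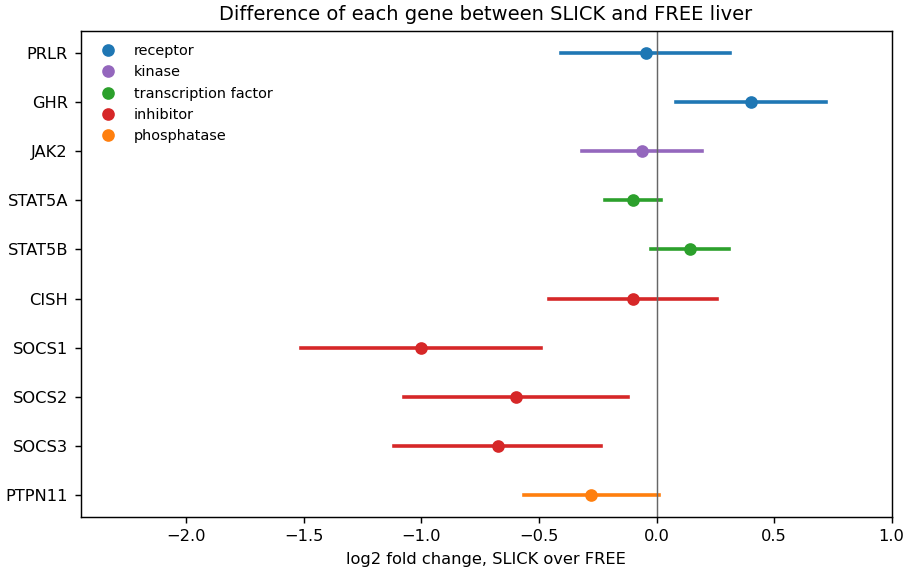
Log2 fold change of each gene, SLICK over FREE, as deposited (points), with the 95% interval computed from the deposited F (bars), coloured by role. The intervals of SOCS1 (-1.51 to -0.49), SOCS3, SOCS2 and GHR (0.08 to 0.72) leave out 0, the other 6 include it, and none of the 10 genes passed the adjusted p of 0.05.

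The size that each gene would have needed to pass was set by its error. The largest p still called in the authors' deposited table was 2.27e-04. At the standard error of each gene this corresponds to 1.72-fold for PRLR, 1.62-fold for GHR, 1.71-fold for CISH and 1.47-fold for JAK2. SOCS1 would have needed 2.16-fold against the 2.00-fold it showed, SOCS3 a log2 fold change of 0.96 in size against 0.68, and SOCS2 2.05-fold against 1.51-fold. Smaller changes of these genes would not have passed this threshold.

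**Figure D3:**
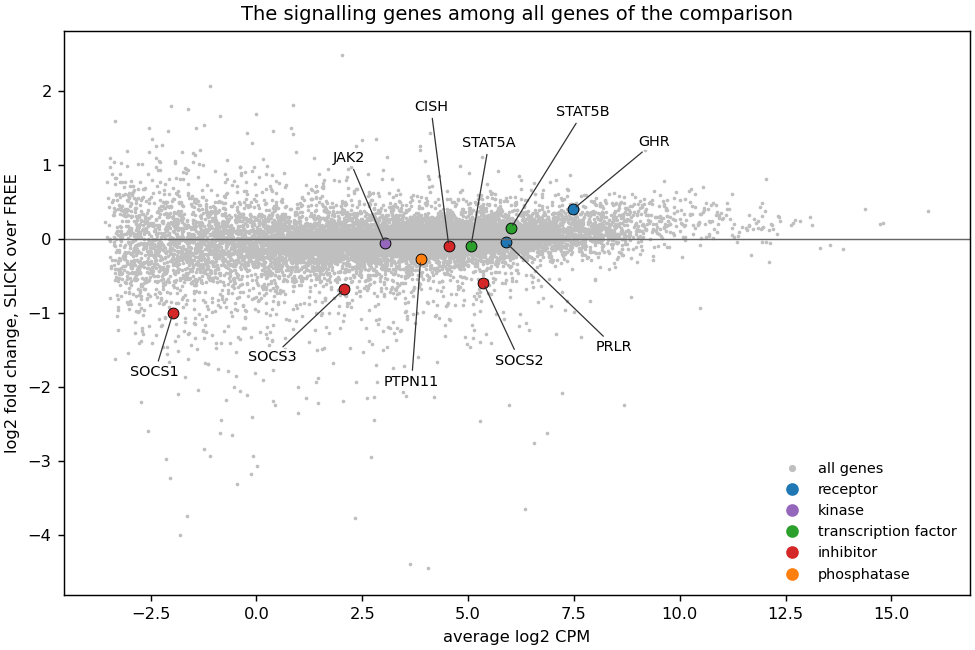
Log2 fold change, SLICK over FREE, against average log2 CPM for all 14161 genes (grey) with the 10 signalling genes coloured by role. SOCS1 lies at the low end at -1.97 log2 CPM and -1.002, SOCS2 lies below most genes near its level, and GHR (7.49 log2 CPM) lies in its upper part.

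The rest of the pathway was covered by 9 lists with 105 further genes, of which 92 were measured. Their median log2 fold change was -0.03, with 36 positive and 56 negative values. MYC alone of the 92 passed the 0.05 level of the adjusted p, by the authors' deposited table. Of the 92, 12 had an unadjusted p under 0.05 (13.0%), against 16.0% of all genes. Of these, 11 were lower in SLICK, where 8.79% of all genes had such a p, and 1 was higher, where 7.22% did. The hormones themselves, prolactin and growth hormone, and 3 placental relatives were not among the genes tested in the comparison.

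None of the related cytokine receptors passed the adjusted p. Of 15 measured, 12 had negative and 3 positive log2 fold changes, and the median was -0.07. Only 1 had an unadjusted p under 0.05, with a value higher in SLICK, where 7.22% of all genes had such a p. The interleukin-6 receptor IL6R had the smallest p, with a log2 fold change of 0.35 (SE 0.11); in the authors' deposited table its adjusted p was 0.113. IL4R stood at -0.20 and IL11RA at -0.18 in the authors' deposited table. Of the SH2B adaptors, which bind JAK2, SH2B3 had a log2 fold change of -0.21, SH2B1 of 0.05 and SH2B2 of -0.05 in the authors' deposited table, none with an unadjusted p under 0.05.

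Among the STAT genes, STAT4 stood at 0.15, STAT2 at -0.15 and STAT3 at -0.03 in the authors' deposited table. Neither these nor STAT6 had an unadjusted p under 0.05.

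The ubiquitin ligase components that work with the SOCS proteins or degrade the receptors had values close to 0. All 13 were measured, with log2 fold changes from -0.13 to 0.17, a median of 0.02 and 0 with an unadjusted p under 0.05. ELOB, the Elongin B subunit that binds the SOCS box, stood at 0.17, ELOC, its partner, at -0.13 and RNF7, a RING subunit, at 0.11 in the authors' deposited table. In the branch that leads to RAS, MAPK and PI3K, 24 of 26 genes were measured and their median was 0.00. Of the 24, only SRC and LYN had an unadjusted p under 0.05, both lower in SLICK, where 8.79% of all genes had such a p. The kinases SRC (-0.54, SE 0.17) and LYN (-0.20, SE 0.08) had adjusted p values of 0.130 and 0.213 by the authors' deposited table, and the exchange factor SOS2 stood at 0.15.

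Genes known as STAT5 targets in liver had values of both signs. Of the 18 measured, which include PRLR, GHR, SOCS2 and CISH, 5 had positive and 13 negative values, with a median of -0.15. MYC, a growth-promoting transcription factor, fell by 1.05 on the log2 scale (SE 0.17, adjusted p = 0.0210 in the authors' deposited table), the 1 gene of the list that passed. Of the 18, 7 had an unadjusted p under 0.05 with a lower value in SLICK, SOCS2 among them, against 8.79% of all genes, and 1, GHR, with a higher one, against 7.22% of all genes. The list was drawn up with earlier results of these data known, and that choice may have raised the count. Nothing particular to STAT5 targets is therefore read from it. PIM1, a kinase, stood at -0.38 and the survival factor BCL2L1 at -0.23 on the log2 scale, and the authors' deposited table lists adjusted p values of 0.154 and 0.187. These 3 genes respond to many other signals besides STAT5.

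Of the targets best known for growth hormone action on the liver, those named here did not pass, and they were chosen after their values were seen. IGF1, the main circulating growth factor under growth hormone control, had a log2 fold change of 0.23 (SE 0.22); in the authors' deposited table its adjusted p was 0.676. IGFALS, which carries IGF in the blood, stood at 0.22 (SE 0.29), and IGFBP3, its binding partner, at -0.01 (SE 0.13) in the authors' deposited table. The intervals of these 3 genes include 0. FGF21, a hormone made by the liver, had the most negative value of the list, a log2 fold change of -2.41 (SE 1.06, interval -4.63 to -0.19), and the authors' deposited table lists an adjusted p of 0.277. Its average level, -0.11 log2 CPM, was the lowest of the list. CUX2, a transcription factor known in mouse liver for its higher level in females under growth hormone control, stood at -1.12 on the log2 scale (SE 0.42, interval -1.99 to -0.24), where the authors' deposited table lists an adjusted p of 0.191. GHR, IGF1 and IGFALS had positive values, and SOCS2, FGF21 and CUX2 had negative ones. Of the other targets, CCND1 stood at -0.41 (interval -0.78 to -0.03) and HAMP at -0.59 (interval -1.61 to 0.43). Smaller values of either sign, with intervals that include 0, were those of CISH (-0.10), BCL6 (-0.15), ONECUT1 (-0.16), HNF4A (0.15) and EGFR (0.05). No pattern is read from these signs.

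**Figure D4:**
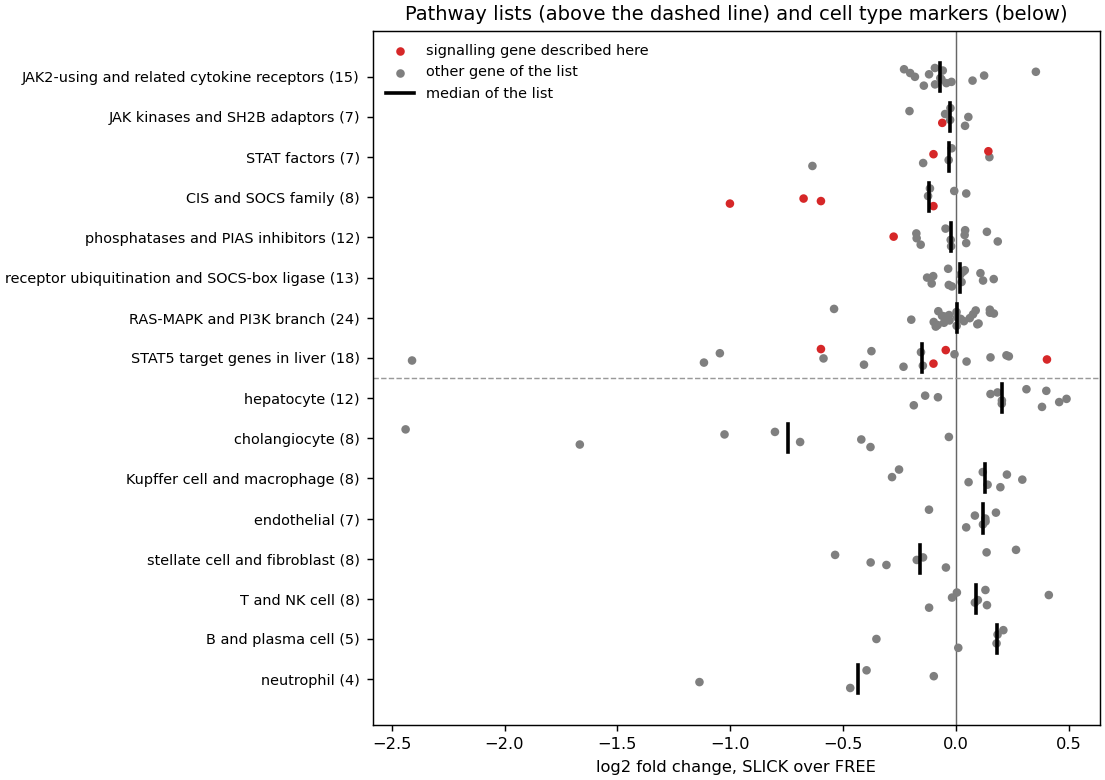
Log2 fold changes, SLICK over FREE, of 8 pathway lists with measured genes (above the dashed line) and 8 lists of cell type markers (below), with the number measured in brackets; red points are the 10 signalling genes, black bars list medians. SOCS1, SOCS3 and SOCS2 lie at the low end of their family, and the cholangiocyte markers lie lowest of the marker lists with a median of -0.75.

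Some markers of other liver cells had lower values in SLICK, as SOCS1, SOCS2 and SOCS3 did. All 8 cholangiocyte markers, of the bile duct lining, had negative log2 fold changes (median -0.75), 6 with an unadjusted p under 0.05, against 8.79% of all genes in that direction, and 0 past the adjusted p. None was absent: their average levels ran from -0.47 to 4.26 log2 CPM, with CLDN4 and EPCAM highest, at values of -1.67 and -0.69 in the authors' deposited table. The fall was not uniform: KRT19 stood at -0.03 and CFTR at -0.38, neither with an unadjusted p under 0.05. Neutrophil markers had a median of -0.43 over the 4 measured, all negative, 2 with such a p, to be read against the same 8.79%; S100A12 stood at -1.14 and S100A9 at -0.40 in the authors' deposited table. Medians of the remaining lists were -0.16 for stellate cells and fibroblasts (8 genes), 0.13 for Kupffer cells and macrophages (8), 0.12 for endothelial cells (7), 0.09 for T and NK cells (8) and 0.18 for B and plasma cells (5), with 0 genes past the adjusted p in each. An unadjusted p under 0.05 with a lower value in SLICK was found for 2 stellate cell and fibroblast markers. The same held for 1 Kupffer cell and macrophage marker and for 1 B and plasma cell marker, JCHAIN (-0.35). The endothelial and the T and NK cell lists had 0 such genes, to be read against the same 8.79%. The part of these cells in the values of SOCS1, SOCS2 and SOCS3 was not tested.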

How the data were processed

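Bovine liver RNA was made into stranded TruSeq mRNA libraries for 18 samples and SMARTer total RNA libraries for 16, per the labels' protocols. Per the submitters' processing notes, the tools were edgeR, Subread, featureCounts and HISAT2 2.1.0, with ARS-UCD1.2 as genome build. The SMARTer table was counted with featureCounts 1.6.2 on Ensembl release 100 models, strand-aware, with a mapping quality of at least 10, per the file headers; settings of the TruSeq counting: not given in the sources used here.

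In 4 tables, 70 columns of values per library are named by animal numbers that match no sample label, and none was used. The planned fits of raw counts, S2 against S1 included, were therefore not made, and depth per sample was not used. The deposited comparison supplied the log2 fold change, the average log2 CPM, the F score, the p-value and the adjusted p of each gene, per the file headers. Whether its model held sire was not stated in those sources. The labels do not state outright that each sample is a separate animal, so p-values measure the spread between samples. Of 14246 rows, 85 repeat a gene and were dropped.

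The standard error was the size of the log2 fold change divided by the square root of F, and F and p together implied 18.7 denominator degrees of freedom. Gene length and position, which belong to no sample, came from the count tables; both gave the same length for all 10 genes. The computation was tested on simulated data, and no set test was made.

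All 10 members were named, with the 3 other genes of the smallest p of each pathway list. The 2 most abundant markers were named for the hepatocyte, cholangiocyte and neutrophil lists only. Further family members and markers were named for comparison after their values were seen. A gene that the rule would name is not reported here. The members and lists were chosen with earlier results of these data known. Of the 10 symbols, all 10 were in the RefSeq gene table of ARS-UCD2.0, used for names only. Alternatives were other adjustments, thresholds, filters on low level, centring and length. Python 3.11.15, numpy 2.4.6, pandas 2.3.3, scipy 1.17.1 and matplotlib 3.10.9 were used.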

Additional observations from a re-analysis of the deposited data

How the results depend on the processing

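The count of 0 members past the adjusted p stayed at 0 with Benjamini-Hochberg over the 14161 distinct genes, with Holm adjustment, and with genes of at least 0 or at least 3 log2 CPM; at an adjusted p under 0.10 it was 1, SOCS1, where 392 of all genes passed. Of the 4 members with an unadjusted p under 0.05, 2 (SOCS1 and SOCS3) had a p under 0.01, and 2 (GHR and SOCS2) averaged at least 3 log2 CPM. Of the 92 further pathway genes, 1 passed under either adjustment and 2, MYC among them, at an adjusted p under 0.10. Centring on all genes, centring on genes of like level and another standard error left 29 of 30 log2 fold changes with their sign and their side of the 95% interval; the exception was GHR, whose value relative to genes of like level was 0.30, with an interval that includes 0. No paired analysis was possible because the library columns carry no replicate numbers. Refits with other normalization or without single replicates were not run for the same reason, so whether 1 animal carries a value was not tested. Depth per sample was not used, so the reads behind the low level of SOCS1, 0.255 CPM on average, are not given.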
